A study of Rattus norvegicus with 8 samples.

Results

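miR-146a and miR-146b are small regulatory RNAs of the inflammatory response, and they were followed here in the kidneys of rats treated with aristolochic acid (AA), a plant compound that is toxic to the kidney and carcinogenic. The members were the rows of the miRNA count table whose names contain miR-146a or miR-146b, with the minor arm of each hairpin, which carries an asterisk in the older nomenclature. These are rno-miR-146a, rno-miR-146a*, rno-miR-146b and rno-miR-146b*, written below without the species prefix, 4 of the 620 miRNAs in the table. A further row is spelled with a lower-case r (mir-146b*) and is described beside them, since the sources used here do not say how it differs from miR-146b*. miR-155, another miRNA of inflammation, was not analysed here.

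All 8 rats were male Big Blue rats, Fisher 344 animals that carry a bacterial reporter transgene for mutation studies. From an age of 6 weeks, 4 of them received AA as its sodium salt by gavage at 10.0 mg/kg, and the 4 controls received 0.9% sodium chloride, both 5 times a week. The study's methods give a treatment of 12 weeks for every rat, whereas the sample labels give 12 weeks for rat 1, 13 for rat 2, 14 for rat 3 and 15 for rat 4 in either group, all with an age of 18 weeks. One small RNA library was made from the kidney of each rat, and its miRNA counts summed to between 13412373 and 15616670. The kidney tubule miRNA miR-192 was present at 205633 to 1124300 normalized counts per library. The RNA came from a piece of tissue cut from the kidney, and the study's methods do not give the region. In RNA from such mixed tissue, more cells of a type and more RNA per cell cannot be told apart.

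miR-146a is induced by NF-kB, the transcription factor that Toll-like receptors and inflammatory cytokines switch on. What controls miR-146b was not tested here. The miR-146 miRNAs repress adaptor proteins of the NF-kB pathway, among them TRAF6 and IRAK1, and so act as a brake on it. They are found in immune cells as well as in epithelium, and the pair comes from genes on different chromosomes.

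The mature sequences of both arms are shown because the counts of this pair rest on a few bases at the 3′ end. They are RefSeq sequences of the rat assembly GRCr8, printed 5′ to 3′ with the seed (bases 2 to 8), the part that selects targets, in capitals.
miR-146a-5p: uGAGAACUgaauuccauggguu
miR-146b-5p: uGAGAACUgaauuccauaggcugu
miR-146a-3p: aCCUGUGAaguucaguucuuu
miR-146b-3p: cCUAGGGAcucaguucuggug
The 5p sequences are the main products, named miR-146a and miR-146b in the table. They lie at chr10:28350053-28350074 on the minus strand and at chr1:255144874-255144897 on the plus strand of GRCr8. In the RefSeq gene table the miR-146a hairpin falls within the span of a long non-coding RNA gene (LOC134480673), and the miR-146b hairpin within the span of the protein-coding gene C1h10orf95. Between the 5p sequences, the first 17 bases are the same, and 20 of the first 22 positions are identical. Counted from 1 at the 5′ end, with the base of miR-146a first, the differences are G18A and U21C, and miR-146b is 2 bases longer. The seed GAGAACU is found in these 2 of the 693 rat mature miRNAs in the RefSeq table and in no other. The 3p arms differ in their seeds, and 6 of their 21 positions are identical. How the authors' mapping assigned reads that end before position 18 is not given in the sources used here, so that such reads leave the split between miR-146a and miR-146b uncertain.

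The study asked which miRNAs change in the kidney under an AA dose that leads to tumors. miR-146b rose 4.69-fold, while miR-146a, with the same seed, did not pass the test and stayed within 0.51 log2 units below and 0.22 above the control level by its 95% interval. miR-146b, with fewer counts than miR-146a in each control rat, made up 39.0% to 69.3% of the counts of the pair in the AA-treated rats.

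In control rats 1 to 4, rno-miR-146b had 7093, 5206, 5072 and 5105 normalized counts, that is, counts divided by a median-of-ratios size factor for each library. In AA-treated rats 1 to 4 it had 38850, 19854, 12297 and 34391. Every AA-treated rat was thus above every control rat, and rats 1 and 4 were highest. The control mean was 5619 ± 984 and the mean after treatment 26348 ± 12391 (SD, 4 rats each). This is a log2 fold change of 2.23 with a standard error of 0.31 and a 95% interval from 1.56 to 2.90, and the adjusted p from the quasi-likelihood test of edgeR was 2.85e-04 (Benjamini-Hochberg over all miRNAs). The size of the rise differed between the treated animals, with a 3.16-fold range among the 4 AA-treated rats against a 1.40-fold range among the controls. miR-146b ranked 74 by mean level among the 620 miRNAs in controls and 34 after treatment.

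rno-miR-146a had 24690, 19289, 22233 and 18194 normalized counts in control rats 1 to 4. In AA-treated rats 1 to 4 it had 17198, 19737, 19259 and 20365. The groups overlapped, and the AA-treated rat with the most miR-146b, rat 1, had the least miR-146a of all 8 rats. The control mean was 21102 ± 2938 and the mean after treatment 19140 ± 1371 (SD, 4 rats each). edgeR gave a log2 fold change of -0.14 ± 0.17 (standard error) with an adjusted p of 0.625, and scaling by library totals instead turned it to 0.12. That scaling moved the median of all 620 miRNAs from 0.046 to 0.31, and relative to this median miR-146a stood at -0.19 under both scalings and miR-146b at 2.18 and 2.16.

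**Figure D1:**
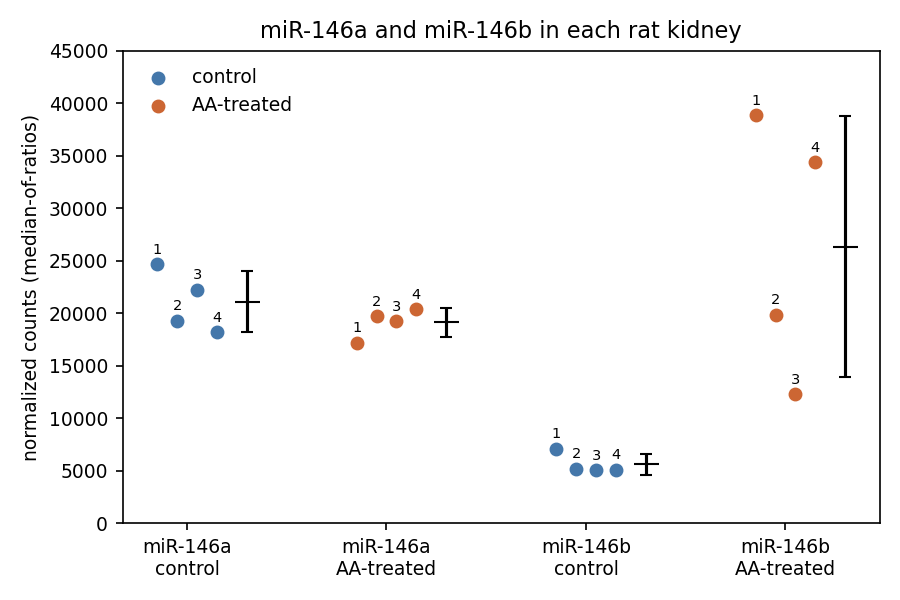
Normalized counts (y axis, linear from 0) of miR-146a and miR-146b in each kidney, with points numbered by rat and the bar at the right of each group giving the mean ± SD (n = 4). The 4 AA-treated rats lie between 12297 and 38850 for miR-146b, above the controls, and overlap the controls for miR-146a.

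Here a miRNA counts as called when its adjusted p is below 0.05 and the group means differ by more than 1.5-fold. Of the 620 miRNAs, 9.03% were called, 5.81% as up and 3.23% as down. Of the 4 members, miR-146b was called up, and the other 3 were not called. By fold change miR-146b stood at place 18 of the 36 miRNAs called up. The groups did not overlap for 101 of all miRNAs, or 16.3%, and among the members for miR-146b alone.

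The ratio of miR-146b to miR-146a within a library needs no normalization between rats. It was 0.287, 0.270, 0.228 and 0.281 in control rats 1 to 4. In AA-treated rats 1 to 4 it was 2.26, 1.01, 0.639 and 1.69. The lowest ratio after treatment, in rat 3, was thus still above the highest ratio of a control. The mean log2 ratio was 2.24 higher in the AA-treated rats (exact two-sided permutation test, p = 0.0286, the lower limit for 4 rats against 4, and 0.0571 after Benjamini-Hochberg adjustment over the 2 ratios tested). Without control rat 2, 3 or 4, the same exact permutation test gave p = 0.0571, with differences between 2.16 and 2.26.

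As a share of the counts of the pair, miR-146b took 22.3%, 21.3%, 18.6% and 21.9% in control rats 1 to 4, a mean of 21.01% ± 1.68 (SD, n = 4). In AA-treated rats 1 to 4 it took 69.3%, 50.1%, 39.0% and 62.8%, a mean of 55.3% ± 13.5 (SD, n = 4). The Wilson 95% intervals of these shares have a half-width of at most 0.587 percentage points, far less than the differences between treated rats. The intervals cover counting error only, since PCR reads are not independent molecules. By counts, miR-146b was the larger part in AA-treated rats 1 and 4, and the pair was even in rat 2. miR-146a remained the larger part in rat 3. How fully each of the 2 sequences was captured in the libraries was not measured, so that these shares describe counts and not amounts of RNA.

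**Figure D2:**
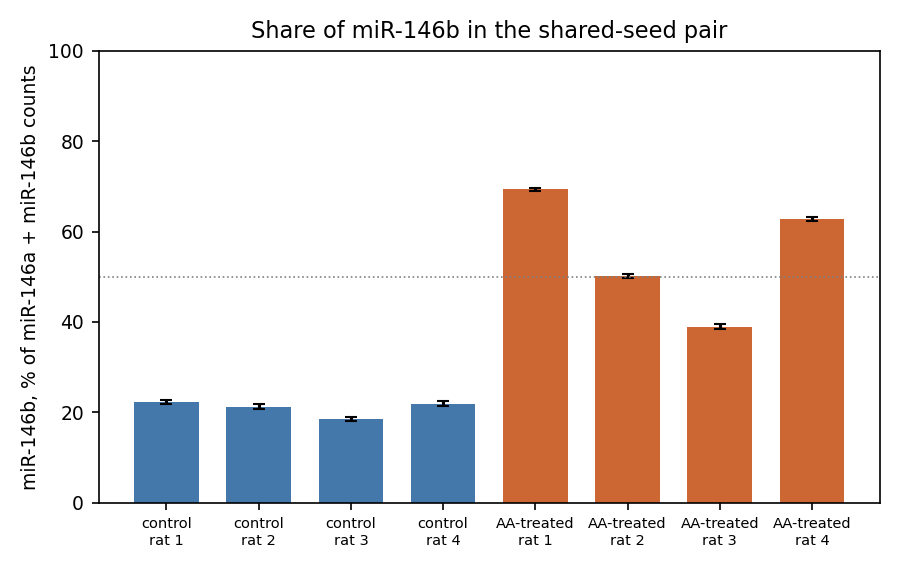
Share of miR-146b in the counts of miR-146a plus miR-146b (y axis, percent) in each rat, with Wilson 95% intervals that cover counting error only and a dotted line at 50%. Controls lie between 18.6% and 22.3%, and treated rats between 39.0% and 69.3%.

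Because both miRNAs carry one seed, their sum gives the counts of this seed among the mature miRNAs. A read counted for the wrong one of the pair does not change this sum. Reads counted for both or for neither would. The pair took 0.2005%, 0.152%, 0.186% and 0.139% of the counts in control rats 1 to 4, and 0.372%, 0.334%, 0.232% and 0.431% in AA-treated rats 1 to 4. All AA-treated shares were above the control shares, with means of 0.342% ± 0.0837 and 0.169% ± 0.0287 (SD, n = 4 each; exact two-sided permutation test, p = 0.0286). Without any 1 of the 4 controls, the same exact permutation test gave p = 0.0571. After division by the size factors the groups touched, with 31556 in AA-treated rat 3 and 31783 in control rat 1 (p = 0.0571 in the same exact permutation test). Fitted as a single feature, the sum was 1.703-fold higher in edgeR (log2 fold change 0.77 ± 0.21, standard error; adjusted p = 0.0350).

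The minor arms were rare. miR-146a* had 22, 18, 15 and 16 counts in control rats 1 to 4 and 15, 25, 19 and 28 in AA-treated rats 1 to 4, so that the groups overlapped. Its log2 fold change in edgeR, 0.033 with a standard error of 0.32 and an adjusted p of 0.957, had a 95% interval from -0.66 to 0.73. Over the 4 controls together, miR-146a* made up 0.0891% of the counts of its hairpin (Wilson 95% interval 0.0706 to 0.112). Over the 4 treated rats it made up 0.102% (0.0828 to 0.126). These intervals cover counting error only and leave out the spread between rats.

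miR-146b* had 1 count in control rat 4, 1 count each in AA-treated rats 1 and 2 and no count in the others, too few for a fold change. The row named mir-146b* had 3, 0, 0 and 1 counts in control rats 1 to 4. In AA-treated rats 1 to 4 it had 7, 12, 3 and 28 counts. AA-treated rat 3 thus equalled the highest control in raw counts, and rat 4 held 28 of the 50 treated counts. Since no control had more than 3 counts, the mean of the AA-treated rats was at least 3.33-fold higher, computed against 3 counts in each control library. edgeR called the row (adjusted p = 0.0281), but no longer without control rat 2, 3 or 4 or AA-treated rat 4, with adjusted p from 0.0741 to 0.0838. The exact permutation test of its normalized counts gave p = 0.0571 (two-sided, n = 4 per group).

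With both spellings added, the minor arm made up 0.0237% of the miR-146b hairpin in the 4 controls together (5 of 21097 counts, Wilson 95% interval 0.0101 to 0.0555). After treatment it made up 0.0453% (52 of 114815 counts, 0.0345 to 0.0594). The intervals overlap. Over single rats, the log2 ratio of minor to main arm was 0.23 higher after treatment with a pseudocount of 1 (exact two-sided permutation test, p = 0.657). This value changed sign without control rat 2 or 3 or AA-treated rat 4. Control rats 2 and 3 had no minor-arm count, so that their ratios rest on the pseudocount. With a pseudocount of 0.5 the difference was 0.76 (p = 0.314, same exact permutation test). A shift between the arms of this hairpin was therefore not detectable at this depth.

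The miRNAs whose level over the 8 rats ran most like that of miR-146b, out of 370 with a mean of at least 10 normalized counts, were miR-21, miR-130b, miR-15b*, miR-18a and miR-301b. Their Pearson r with miR-146b on log2 normalized counts was 0.996, 0.973, 0.971, 0.964 and 0.958. All 5 were called up, so that part of each r is the difference between the groups. miR-130b and miR-301b come from one cluster, and miR-18a belongs to the miR-17/92 cluster, known for its part in proliferation. After each group's mean was subtracted, r was 0.980, 0.908, 0.843, 0.844 and 0.782. miR-130b, for example, had 148, 124, 141 and 109 normalized counts in control rats 1 to 4 and 720, 599, 404 and 757 in treated rats 1 to 4, so that rat 3 was again lowest after treatment. The 8 points share the normalization of each library, and the coefficients are given as a description.

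miR-21, an abundant miRNA known to rise in injured kidney, was nearly proportional to miR-146b from rat to rat. It had 537794, 468877, 477797 and 421413 normalized counts in control rats 1 to 4 and 2392190, 1453810, 1012260 and 2445710 in AA-treated rats 1 to 4. The counts of miR-21 per count of miR-146b were 75.8, 90.1, 94.2 and 82.6 in the controls and 61.6, 73.2, 82.3 and 71.1 in the treated rats. Over all 8 rats, and among the treated rats alone, this ratio varied far less than either miRNA. Among the controls it varied about as much as miR-21. Both miRNAs were lowest of the treated group in rat 3 and higher in rats 1 and 4 than in rat 2. Spearman's rho over the 8 rats was 0.905. Without AA-treated rats 1 and 4, the rats farthest from the median of miR-21, Pearson's r was 0.991 over the other 6. These 6 still include both groups, so that this r also holds the difference between them. miR-21 was named here because its r was the highest, and these values are no independent check.

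**Figure D3:**
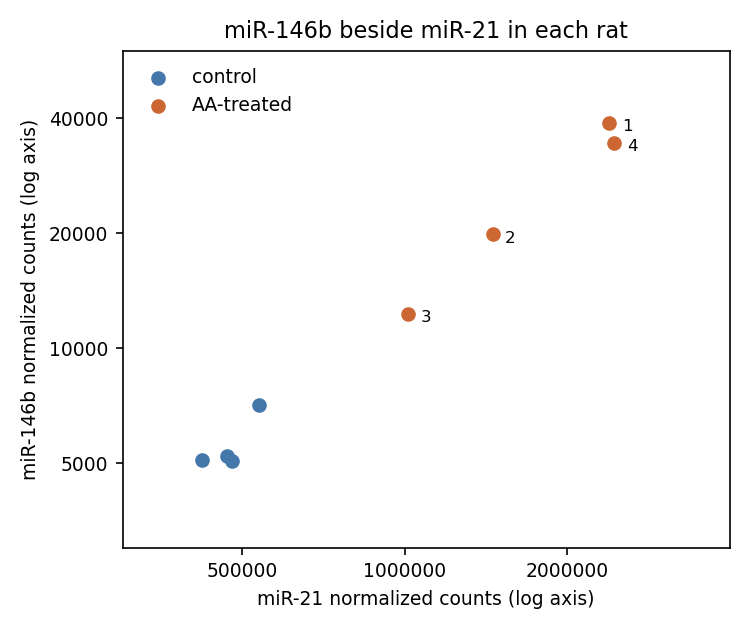
Normalized counts of miR-146b (y axis, log scale) against those of miR-21 (x axis, log scale), 1 point per rat, with the AA-treated rats numbered. The treated rats spread along one line from rat 3, at 12297 miR-146b counts, to rats 1 and 4, at 38850 and 34391.

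miR-146a ran with other miRNAs and less closely. The 5 most like it were miR-206, miR-154, miR-135a, miR-338* and miR-183, with Pearson r from 0.651 to 0.728 over the 8 rats and from 0.583 to 0.797 after the group means were subtracted. Between miR-146a and miR-146b, r was -0.37, and 0.049 without the group means. Of the 5, miR-135a was called down (log2 fold change -1.46, adjusted p = 0.00258 from edgeR), and the other 4 were not called.

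Of 14 other miRNAs known to respond to NF-kB or Toll-like receptor signalling or to tune it, 6 rose, none fell and 8 did not pass the test, where 5.81% of all miRNAs were called up and 3.23% down. Their median log2 fold change was 1.09, against 0.046 over all 620 miRNAs. The groups did not overlap for 6 of them, against 16.3% of all miRNAs. Besides miR-21 and its minor arm miR-21*, these were miR-132 and miR-212, a pair from one cluster, miR-187 and miR-223. The list was written with earlier results of these data known, and lends no independent support to a direction.

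Among those that rose, miR-132 went from 136 ± 40.3 to 526 ± 81.7 normalized counts (SD, 4 rats each), up by 1.95 log2 units with an adjusted p of 2.76e-04 from edgeR. miR-212 went from 24.6 ± 7.23 to 86.0 ± 17.8 (SD, n = 4 each; log2 fold change 1.80, adjusted p = 0.00192 from edgeR). In AA-treated rats 1 to 4, miR-132 had 594, 443, 468 and 598 normalized counts and miR-212 had 101, 70.2, 71.0 and 102. Rats 1 and 4 were highest for both, as for miR-146b. Rats 2 and 3 were close, with rat 2 lowest, whereas rat 3 was lowest for miR-146b. miR-187, described in stimulated monocytes, reached 3364 normalized counts in treated rat 4, while the other treated rats had 305 to 561 and the controls 80.0 to 136.

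The 8 that did not pass ranged from -0.26 to 2.68 in log2 fold change. The highest was miR-187*, the minor arm of miR-187, with 0, 0, 3.79 and 4.89 normalized counts in control rats 1 to 4 and 11.2, 13.3, 3.94 and 28.5 in treated rats 1 to 4 (adjusted p = 0.0532 from edgeR). miR-147 had 13.2 to 21.8 normalized counts in control rats 1 to 3 and 3.67 in control rat 4, against 18.0 to 47.6 in the AA-treated rats (adjusted p = 0.152 from edgeR). miR-99b, miR-125b-5p and let-7e, the 3 most abundant of those that did not pass, had log2 fold changes of -0.20, -0.26 and 0.15.

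**Figure D4:**
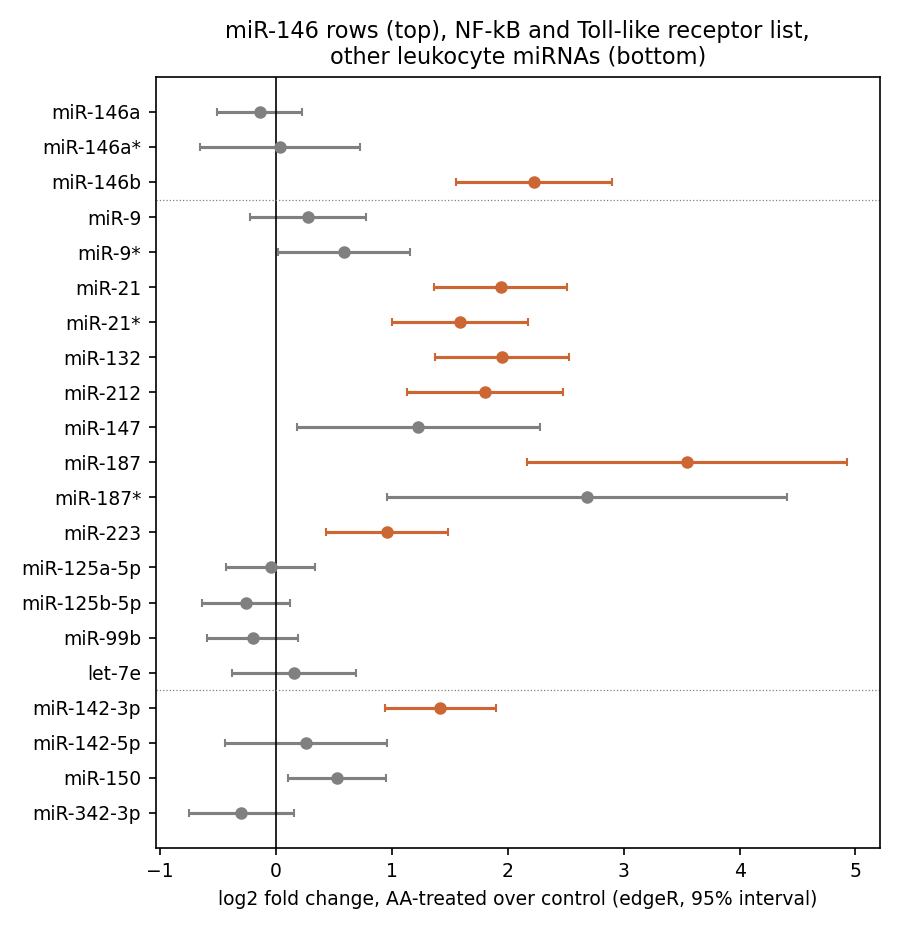
Log2 fold change of AA-treated over control rats (x axis, edgeR, bars are 95% intervals) for miR-146a, miR-146a* and miR-146b, the 14 miRNAs of the NF-kB and Toll-like receptor list, and the leukocyte miRNAs not on that list, with called miRNAs in orange. miR-146b, at 2.23, lies near miR-21 and miR-132, and the interval of miR-146a includes 0.

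Of 5 leukocyte miRNAs, 2 rose and none fell, and the groups did not overlap for 3 (5.81%, 3.23% and 16.3% of all miRNAs). Their summed level was 14449 to 18282 normalized counts in controls and 29991 to 57135 after treatment, most of it miR-142-3p, and none was at 0 in any group. miR-142-3p, a marker of blood-forming cells, had 15359, 13967, 15439 and 11422 normalized counts in control rats 1 to 4. In AA-treated rats 1 to 4 it had 32077, 38203, 26580 and 53269, so that rat 3 was again lowest of the treated rats, whereas rat 1, with the most miR-146b, came after rats 4 and 2. It rose 2.67-fold (log2 fold change 1.42, adjusted p = 7.92e-04 from edgeR). The myeloid miRNA miR-223, which is also on the list above, rose 1.94-fold, from 590 ± 45.5 to 1147 ± 341 (SD, n = 4 each; adjusted p = 0.0231 from edgeR). miR-142-5p, the other arm of the miR-142 hairpin, and the lymphocyte miRNAs miR-150 and miR-342-3p did not pass, with log2 fold changes of 0.26, 0.52 and -0.30. The part of leukocytes in the rise of miR-146b was not tested.

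Markers of other kidney cells were also read. Of 3 kidney tubule miRNAs, miR-204 fell, from 447 ± 103 to 247 ± 31.9 normalized counts (SD, n = 4 each; adjusted p = 0.0357 from edgeR), while miR-192 and miR-194 did not pass, with log2 fold changes of -0.84 and -0.77 against -0.86 for miR-204. For miR-194, as for miR-204, all AA-treated rats were below all controls (adjusted p = 0.0515 from edgeR for miR-194). Over all miRNAs, the groups did not overlap for 16.3%. The summed level of the tubule list was 357507 to 1161160 in the controls and 224279 to 408419 after treatment. Most of this sum was miR-192, and the highest value was that of control rat 4. None of 5 miRNAs of fibroblasts and mural cells, 2 of endothelium and 2 of red cells was called, where 9.03% of all miRNAs were called. At this share, lists so short can be without a call. The summed level of the fibroblast and mural list was 2559050 to 3549720 in the controls and 1973050 to 2676500 in the AA-treated rats, most of it miR-143 (log2 fold change -0.41). The other 4 of that list, miR-199a-5p, miR-199a-3p, miR-214 and miR-145, had log2 fold changes of 0.73, 0.60, 0.43 and 0.22, and for miR-199a-3p the groups did not overlap (adjusted p = 0.0670 from edgeR). For the endothelial list it was 124106 to 164003 and 88876 to 137262, and for the red cell list 6910 to 11910 and 2172 to 8116. The part of these cell types in the miR-146 values was not tested.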

How the data were processed

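The authors masked adaptors, discarded contaminated reads, collapsed identical reads and mapped them to rat miRNAs of miRBase 16 using miRanalyzer at default settings. Base calling with CASAVA 1.7 is named in the submitters' processing notes. The deposited values are whole-number read counts per miRNA and rat, without normalization or pooling. The build and the handling of reads matching more than 1 miRNA are not given in the sources used here.

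Normalized counts are counts over the median-of-ratios size factor of the library (0.818 to 1.28), and all 620 miRNAs were tested with no low-count filter in edgeR 4.0.16 (R 4.3.3, quasi-likelihood test, 8 rats, no covariate, Benjamini-Hochberg adjustment). A call needed an adjusted p below 0.05 and group means that differed by more than 1.5-fold. Standard errors are the log2 fold change over the square root of F. Ratios within a rat used a pseudocount of 1 and exact permutation tests (scipy 1.17.1). The script was tested on simulated data.

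Alternatives were TMM, total counts, DESeq2 1.42.0, limma-voom (limma 3.58.1), a filter of at least 10 counts in 4 rats, a replicate block, a pseudocount of 0.5, and omission of each rat in turn or of both rats numbered 4. Those for miR-146a* and mir-146b*, for the pair without both rats numbered 4, and the replicate block for the library share of the pair were chosen after seeing the data. Members and lists were chosen with earlier results of these data known. Named miRNAs were the members, the called miRNAs of each list with up to 3 abundant others, and the 5 most correlated with each of miR-146a and miR-146b. Outside this rule, miR-199a-5p and miR-214 were named to complete their list. So were miR-187* and miR-147, which had the highest log2 fold changes of those not called on the NF-kB and Toll-like receptor list. The depth of at least 13412373 counts per rat limits precision most for rows with few counts, such as the minor arms. No 2 libraries of a group repeated each other (chi-square per degree of freedom at least 394). miR-486, on the red cell list, was not analysed here.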

Additional observations from a re-analysis of the deposited data

Results flagged for a closer look

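In the 14 sets of 4 values checked (the miR-146 rows, the share of miR-146b in the pair and the share of the pair in the library, each in both groups), 2 had a rat far from the other 3. For normally distributed values, chance gives about 1 in 20. Control rat 1 had 7093 normalized counts of miR-146b against 5072 to 5206 in the other controls, and without it the log2 fold change of miR-146b was 2.36. miR-146b* had 1.22 normalized counts in control rat 4, from a single read, against 0 in the other controls. That set was bound to be flagged, since its other 3 values were all 0. The rate of 1 in 20 does not apply to it.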

How the results depend on the processing

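The rise of miR-146b kept its call under all 15 alternatives, with log2 fold changes from 1.98 to 2.47 and adjusted p from 4.66e-09 (DESeq2) to 0.00489 (without both rats numbered 4). Leaving out each rat in turn gave 1.98 to 2.45. miR-146a was not called under any alternative (adjusted p 0.413 to 0.879), and its log2 fold change turned to 0.12 with total counts and lay between -0.21 and -0.056 with each rat left out. For miR-146a* the range with each rat left out was -0.087 to 0.13. It was -0.027 without both rats numbered 4 and 0.31 with total counts. mir-146b* was no longer called without both rats numbered 4 (log2 fold change 2.61, adjusted p = 0.143 from edgeR), and ranged from 2.54 to 4.51 with each rat left out. The miR-146b* row ranged from 0.047 to 2.27 with each rat left out and was 2.62 without both rats numbered 4. The low-count filter removed both minor-arm rows of miR-146b. The number of called miRNAs was 40 to 62 with each rat left out and at most 74, and with total counts 58 were up and 11 down (84.1% up), against 36 and 20 (64.3% up).

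The log2 ratio of miR-146b to miR-146a differed by 2.12 without both rats numbered 4 (p = 0.1, the smallest exact permutation p for 3 against 3) and by 1.95 to 2.56 with each rat left out. The share of the pair differed by 0.133 percentage points without both rats numbered 4 (p = 0.1, exact permutation), by 0.143 to 0.210 with each rat left out (p = 0.0571 without any 1 control, exact permutation), and the normalized sum by 18767. The log2 ratio of the arms ranged from -0.082 to 0.56 with each rat left out and was 0.76 with a pseudocount of 0.5. The cause of these changes was not tested.

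Rats that share a number are separate animals, although the labels give them the same treatment time. The deviations of same-numbered rats from their group's mean correlated over 370 miRNAs at -0.011, 0.14, 0.12 and 0.34 for the rats numbered 1 to 4 (mean 0.148, against -0.048 between unlike numbers), and the rats numbered 1 did not correlate best with each other. Pairing by number was therefore not established. With the replicate block, 74 miRNAs were called and the log2 fold change of miR-146b was 2.11 (adjusted p = 4.65e-04 from edgeR). Sign changes over the 4 number pairs, which cannot give a p under 0.125, left the differences at 2.24 for the log2 ratio and 0.173 percentage points for the share (exact p = 0.125 each). The block changed no call of a miR-146 row.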
